A study of Bos taurus with 3 samples.

Results

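miR-143 and miR-145 are 2 mature miRNAs made from neighbouring hairpins, and they stood at very different levels in RNA from bovine large dense-core vesicles. The members were every row of the deposited count table whose name, without species prefix, miRBase accession and arm, was miR-143 or miR-145. The rule found 2 of the 793 mature miRNAs, bta-miR-143 (MIMAT0009233, hairpin MI0009743) and bta-miR-145 (MIMAT0003542, hairpin MI0004756). Each had a single row on a single hairpin, so neither was counted at several copies, and no second arm of either hairpin had a row. The pair was chosen by its measured levels and their ratio in these libraries, so all values of the pair are given as a description and without a test.

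The libraries came from large dense-core vesicles, the organelles that store catecholamines and peptides, purified from chromaffin cells of the adrenal medulla of slaughtered cattle (Bos taurus). They were 2 technical replicates, here libraries T1 and T2 for technical replicates 1 and 2, and 1 biological replicate, here library B, with no treatment and no genotype in the labels, which give no age or breed and do not say how many animals were pooled. The technical pair was averaged, so that SDs are over n = 2 preparations. RNA of whole cells or of other fractions was not analysed here, so a level describes the vesicle preparation and shows no enrichment. In such bulk RNA, fewer cells of a type and less RNA per cell cannot be told apart. As a check of the tissue label, miR-375 and miR-7, known from endocrine cells, together held 44.1% of the counts of T1, 42.8% of T2 and 47.3% of B.

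miR-143 and miR-145 are known as the miRNAs of smooth muscle. They are generally described as products of a common primary transcript, driven in smooth muscle by serum response factor and myocardin, and they favour the contractile state of these cells, with miR-145 acting on the transcription factor KLF4. Fibroblasts and pericytes also express them, whereas miR-375 and miR-7 mark endocrine cells. In the RefSeq annotation of the ARS-UCD2.0 assembly, MIR143 and MIR145 neighbour each other within the long non-coding RNA gene LOC132345768, between the protein-coding genes IL17B and CSNK1A1. The submitters' notes name another build, UMD3.1, so no coordinates are given. The distance between the hairpins was within the 10 kb used here to define neighbours.

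miR-143 was among the most abundant miRNAs of the preparations. It had 76060 counts in T1, 97879 in T2 and 55048 in B. As a share of all miRNA counts this was 1.37% (exact 95% interval 1.362 to 1.381%), 1.57% (1.556 to 1.575%) and 0.821% (0.814 to 0.827%). The intervals of the 3 libraries did not overlap, and they cover counting error only. Library B was the lowest, and the technical libraries also differed by more than counting error. The mean was 11445 ± 4581 CPM (CPM, the count scaled to a common library total; SD, n = 2), the 16th highest of all mature miRNAs. By library, miR-143 ranked 15th in T1, 14th in T2 and 20th in B. Next above and below it in mean level were miR-99a-5p, at 11474 ± 356 CPM, and let-7i, at 10274 ± 978 CPM (both SD, n = 2). Neither of these neighbours in the order differed from miR-143 by more than the SD of miR-143.

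miR-145 was close to the limit of detection. It had 14 counts in T1, 12 in T2 and 11 in B. Scaled to the library totals, these were 2.52 CPM (exact 95% interval 1.38 to 4.23), 1.92 CPM (0.992 to 3.35) and 1.64 CPM (0.819 to 2.93). The 3 intervals overlapped widely, so no difference between the libraries was detectable at this depth. The level that a count of 0 allows (3 counts) was between 0.447 and 0.541 CPM, below each of the 3 values and below the lower end of each interval. The mean of 1.93 ± 0.412 CPM (SD, n = 2) placed miR-145 349th of the 526 miRNAs with any count. Next above it was miR-124b, at 1.97 ± 0.679 CPM, and next below miR-2285ab, at 1.93 ± 1.25 CPM. miR-145 did not differ from either by more than their SDs. In the authors' deposited table it had 1.91, 1.43 and 1.26 CPM, just above the 1 CPM in at least 2 libraries that all 459 rows of their log2 table passed. Of those 459 rows, 72 had a sum over the 3 libraries at or below that of miR-145, itself included.

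The 2 neighbours therefore differed by more than 3 orders of magnitude in every library. Each library gave 1 miR-145 count for every 5433 miR-143 counts in T1 (exact 95% interval 3238 to 9938), for every 8157 in T2 (4669 to 15786) and for every 5004 in B (2797 to 10025). The highest ratio was that of T2, and the 3 intervals overlapped. On the log2 scale the ratio was 12.49 ± 0.29 (SD, n = 2 preparations), a geometric mean of 5772. Library B lay 0.41 log2 units below the technical mean, a log2 difference of -0.41, whereas the technical libraries lay 0.59 log2 units apart. An exact interval for the log2 difference from the summed technical counts ran from -1.49 to 0.75 and so included 0. The ratio is taken within a library and needs no scaling between libraries. A read counts as 1 mature miRNA, so length does not enter it, but no calibration of the library steps for different sequences was used, and the ratio is one of counts and not of molecules.

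**Figure D1:**
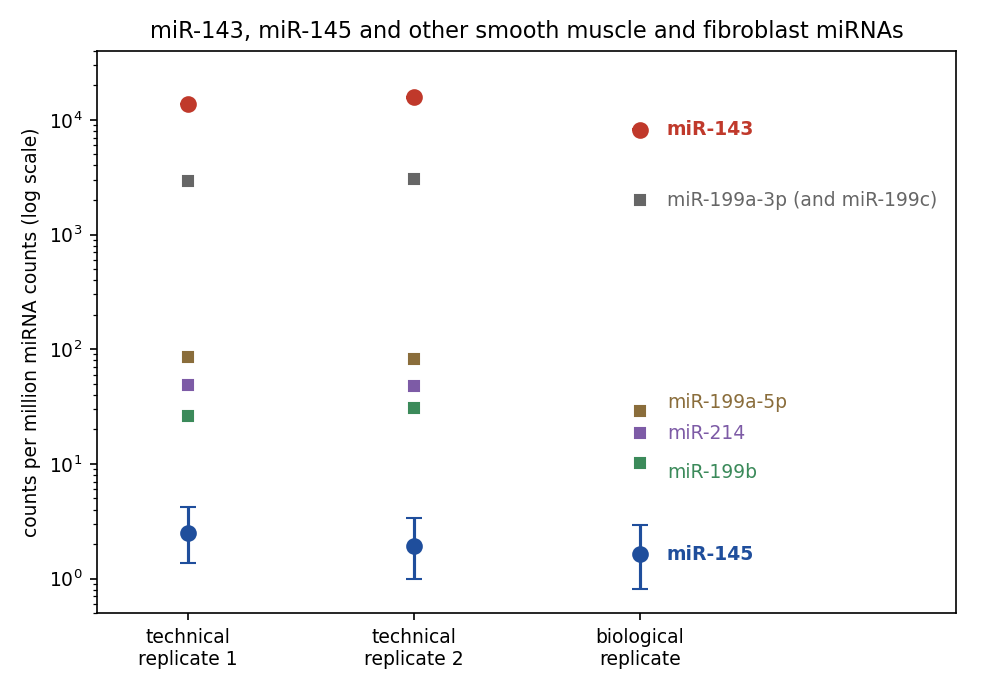
CPM (log axis) of miR-143, miR-145 and the other miRNAs of the smooth muscle and fibroblast list in each of the 3 libraries. Bars on miR-143 and miR-145 are exact 95% counting intervals, smaller than the symbol for miR-143. miR-143 lies between 8206 and 15656 CPM and is the highest of the list in each library, and miR-145 lies between 1.64 and 2.52 CPM and is the lowest.

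**Figure D2:**
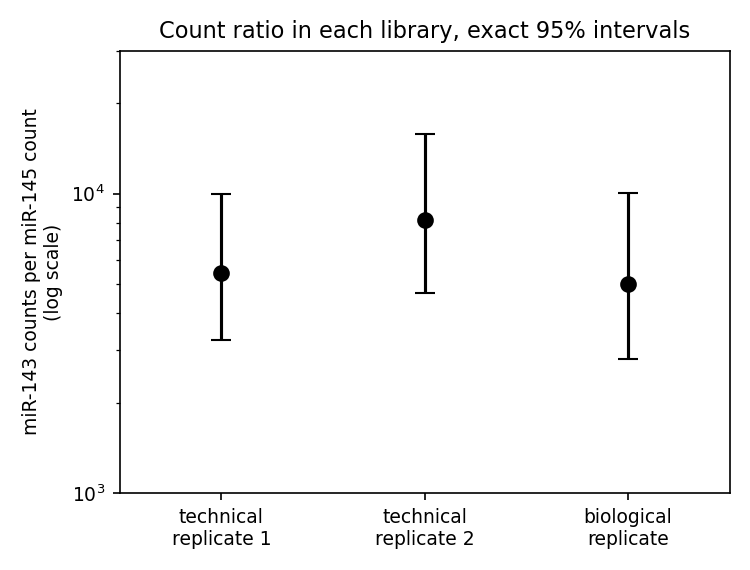
Counts of miR-143 per count of miR-145 in each library (points, log axis), with exact 95% intervals from the split of the 2 counts (bars). The values lie between 5004 and 8157, and the 3 intervals overlap.

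Other miRNAs from neighbouring hairpins were mostly closer in level. RefSeq places 86 pairs of different miRNAs of the count table next to each other within 10 kb, with at least 100 CPM for the more abundant one. Some of these pairs share a hairpin, so they are not independent. Some of the miRNAs, such as miR-92a and let-7a-5p, were counted at several hairpins with nearly the same counts. For miR-92a these were 11906 and 12122 in T1. A ratio with such a miRNA is not one between 2 single hairpins, unlike that of miR-143 and miR-145. The ratio of the more to the less abundant miRNA had a median of 11.0 over the 85 other pairs. Of these, 39 had a ratio under 10 and 7 a ratio over 1000. In this order the ratio of miR-143 to miR-145 was the 3rd highest. Both wider pairs had a partner of very few counts. miR-2475, next to miR-23b-3p, had 2, 0 and 3 counts in T1, T2 and B, a ratio of 34125 over the summed counts (exact 95% interval 14623 to 105100). miR-3120, next to miR-199a-3p, whose counts are also those of miR-199c, had 2, 4 and 1 counts, a ratio of 6962 (3379 to 17318). The same sum gave 6189 (4490 to 8790) for miR-143 and miR-145, which lies within the interval of miR-199a-3p and miR-3120. In 5 pairs ranked lower the scarcer miRNA had no count in any library, so that their ratios are lower bounds and the place of miR-143 and miR-145 is not exact. The counts of the more abundant miRNA also limit the ratio that a pair can show. For miR-485, at 129 CPM, with miR-453 at 0, it was 270.

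Among widely known clusters the pair stood first. Of 40 pairs listed from textbook clusters, all with both names in the table, the other 39 had a median ratio of 5.35. The widest of them was that of miR-450a to miR-542-5p, at 394. There miR-542-5p was at 0 in a library, and 3 counts were used. Here too, some miRNAs were counted at several hairpins. Unlike the pairs from RefSeq, the listed pairs had no lower limit of abundance, so scarce pairs could not show a wide ratio. For miR-183 with miR-96, at 0.35 and 0 CPM, the use of 3 counts set the ratio at 1. The place of miR-143 and miR-145 and the median rest in part on this. miR-127 and miR-136 differed 203-fold, and miR-199a-3p and miR-214, which are also known from mesenchymal cells, 81.8-fold. miR-132 and miR-212, activity-regulated miRNAs of neurons, differed 40.2-fold. The arms of 1 hairpin can differ as widely. Over 29 hairpins with both arms in the table and at least 100 CPM for the major arm, the median ratio of the arms was 15.9, and 2 of the 29 exceeded the ratio of miR-143 to miR-145.

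**Figure D3:**
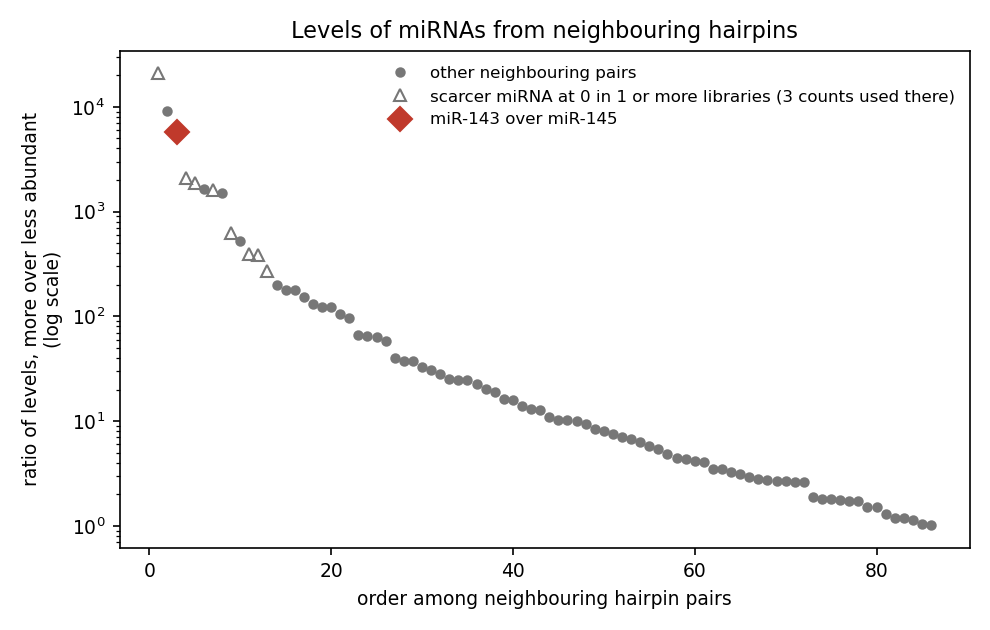
Ratio of levels of the more to the less abundant miRNA (log axis) for 86 pairs from neighbouring hairpins, ordered from the widest to the narrowest. Circles are pairs with counts for both miRNAs in all 3 libraries, and triangles are the 8 pairs whose scarcer miRNA was at 0 in a library, where 3 counts were used. The diamond, miR-143 over miR-145, is the 3rd from the left.

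Between the preparations, miR-143 was lower in B and miR-145 could not be placed. After TMM scaling, which sets libraries to a common level by the bulk of their miRNAs, the log2 CPM of miR-143 was 13.70, 13.85 and 13.12 in T1, T2 and B. Library B lay 0.66 log2 units below the technical mean (log2 difference -0.66), 0.635 times the technical level, and the technical libraries differed by 0.15. For miR-145 the log2 CPM was 1.30, 0.86 and 0.83. Its log2 difference was -0.24, smaller in size than the -0.44 between T2 and T1. The exact 95% interval for miR-145, from the summed technical counts, ran from -1.41 to 0.82 and thus held the value of miR-143 as well as 0. These counts do not show that miR-145 differed from miR-143 in this comparison, nor that it did not.

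Both members can be placed among the 367 miRNAs that reached 10 counts in 1 or more libraries. The log2 fold change fitted by edgeR was lower than that of miR-143 for 47 of the 367 and lower than that of miR-145 for 109. The median of all 367 was 0.01, and the median size of a log2 fold change was 0.28. The distance of miR-145 within the technical pair, 0.44, was exceeded by 34 of the 367, and the median over the 56 miRNAs with 20 to 80 counts in all was 0.32. The corresponding median was 0.09 for the 167 miRNAs averaging 100 CPM or more, and miR-143, at 0.15, lay above it. For pairs of neighbours with at least 100 CPM each, the difference of the log2 differences had a median size of 0.23 over 39 pairs. Of these, 11 exceeded the 0.41 of miR-143 and miR-145. That pair is not among the 39, since miR-145 lies below 100 CPM, and its value rests on few counts. Without T1 or T2, 4 and 27 pairs did so, since the value of miR-143 and miR-145 then became 0.70 and 0.12 in size. The largest such differences were those of miR-194 with miR-215, let-7a-5p with miR-100, miR-30d with miR-30b-5p, miR-92a with miR-19b, and miR-543 with miR-495, from 1.04 to 0.65. Of these, let-7a-5p and miR-92a were counted at several hairpins. miR-379 with miR-411a, miR-323 with miR-758, and miR-25 with miR-93 had the smallest, from 0.00 to 0.03.

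The miRNAs whose differences between the 3 libraries lay nearest to those of miR-143 were sought among 166 others of at least 100 CPM. By the Euclidean distance of centred log2 CPM over 3 libraries, they were miR-411b (distance 0.06), miR-101 (0.14) and miR-30a-5p (0.14). Of the other miRNAs of the smooth muscle and fibroblast list described below, only miR-199a-3p and miR-199c, with identical counts, reached 100 CPM. The others of that list could not be found here. miR-411b had 269, 321 and 159 CPM in T1, T2 and B. For miR-145, miR-181a (0.15), miR-153 (0.17) and miR-29a (0.22) lay nearest, which has little weight at 11 to 14 counts. With 3 libraries, 2 of them technical, this likeness is a description only.

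A short list of miRNAs known from smooth muscle and fibroblasts held miR-199a, miR-199b, miR-199c and miR-214 beside the pair. These others were all detected, at levels between those of miR-143 and miR-145, and had lower levels in B than in T1 and T2. They do not stand for all miRNAs of these cells. Other miRNAs studied in vascular smooth muscle, given further below, were called in both directions or did not pass. Of those, miR-21-5p and miR-26a stood above miR-143. In edgeR's quasi-likelihood test of the biological against the technical libraries (Benjamini-Hochberg adjusted p below 0.05), all 5 mature miRNAs other than the pair were called lower and none higher, as with DESeq2, and none was higher at an unadjusted p below 0.05 either. The list was chosen with earlier results of these data known, so this count is a description. The test sets B alone against T1 and T2 and holds no spread between preparations. A call thus separates these libraries and shows no difference beyond the spread between preparations. Over all 367 miRNAs edgeR called 37.9%, 20.2% as lower and 17.7% as higher, and DESeq2 called 14.6% as lower and 15.3% as higher of those it adjusted. The median log2 fold change of the 5 was -1.20, against 0.01 over all miRNAs tested. miR-199a-3p and miR-199c carried identical counts, so the 5 hold 4 different sets of counts. These are not independent of each other, since miR-199a-3p and miR-199a-5p are arms of the same hairpins, and miR-199a and miR-214 are neighbours themselves.

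Among these, miR-199a-3p was nearest in level to miR-143. It had 2952 CPM in T1, 3048 CPM in T2 and 1984 CPM in B, a log2 fold change of -0.42 ± 0.10 (SE; edgeR, adjusted p = 0.00017, from 2.4e-07 to 0.013 over 6 alternatives). The opposite arm of the same hairpins, miR-199a-5p, had 85.1, 81.7 and 28.9 CPM and fell by 1.35 ± 0.16 (SE) on the log2 scale. miR-214, at 48.5, 47.8 and 18.5 CPM, and miR-199b, at 26.0, 31.0 and 10.3 CPM, fell by 1.20 and 1.29. The technical libraries of each lay close together and apart from the biological one. miR-145 was thus the scarcest of the list, below miR-199b, while miR-143 alone held more counts than the rest of the list together. Without the pair, and with the identical counts taken once, the list held 0.311% of the counts of T1, 0.321% of T2 and 0.204% of B, and miR-143 moved in the same direction. The part of the cells behind this list in the difference of miR-143 was not tested.

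Of other miRNAs studied in vascular smooth muscle, some were called lower and some higher, in shares near those over all miRNAs. Of 12 mature miRNAs from 10 names, 2 were lower, 3 were higher and 7 did not pass (edgeR), with a median log2 fold change of -0.01, where 20.2% of all miRNAs were lower and 17.7% higher. The 4 most abundant were miR-21-5p, a miRNA of proliferating and fibrotic tissue, miR-26a, miR-24-3p and miR-10a, with means of 40412, 23543, 6137 and 903 CPM. Of these miR-24-3p rose, by 0.27 on the log2 scale, and miR-21-5p (-0.16), miR-26a (0.07) and miR-10a (0.07) did not pass. miR-146a, which is also known from leukocytes, and miR-31 fell by 1.31 and 1.41, and miR-24 and miR-1 rose by 0.56 and 0.41. miR-24-3p and miR-24 come from 1 of the 10 names, so the 3 called higher are not independent. With library totals in place of TMM edgeR gave 3 lower and 0 higher, with 1 higher at an unadjusted p below 0.05, where 23.4% of all miRNAs were lower and 6.54% higher, and DESeq2 gave 2 lower and 1 higher. The call of miR-24-3p held in DESeq2 only, and its adjusted p ranged from 0.049 in DESeq2 to 0.48 in edgeR with library totals over 6 alternatives. miR-221 and miR-222, known for the proliferative state of smooth muscle, had means of 8.73 and 9.44 CPM and log2 fold changes of -0.08 and -0.15 that did not pass.

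miRNAs of other cells that a preparation from the adrenal medulla could hold were scarcer than miR-143. Their calls stand against the 20.2% of all miRNAs called lower and 17.7% called higher by edgeR, and 14.6% and 15.3% by DESeq2. The endothelial miR-126-3p and miR-126-5p, arms of 1 hairpin, had 1391 and 429 CPM in T1, 1490 and 397 in T2 and 907 and 223 in B. Both were lower in B, with log2 fold changes of -0.49 and -0.71 (edgeR; 2 of 2 also in DESeq2). The leukocyte list of 6 mature miRNAs summed to 281, 280 and 123 CPM, and 2 of 5 tested, miR-146a and miR-142-5p, were lower and none higher (edgeR, and none at an unadjusted p below 0.05). DESeq2 called 1 lower. The other arm of miR-142, miR-142-3p (-0.29), did not pass in edgeR, nor did miR-150 (-0.50) and miR-155 (-0.15). The erythrocyte list summed to between 837 and 1097 CPM, mostly miR-486, with a rise of 0.53 on the log2 scale, while miR-451 (-0.19) did not pass and miR-144 had too few counts for the test. The striated muscle list of 7 summed to between 655 and 883 CPM, with miR-499 and miR-1 higher in edgeR (1 of the 2 in DESeq2), 0 lower in either, also at an unadjusted p below 0.05, and 2 members at 0 in all libraries. Both endothelial arms, like the smooth muscle list, moved in the direction of miR-143, and their part in its difference was not tested.

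**Figure D4:**
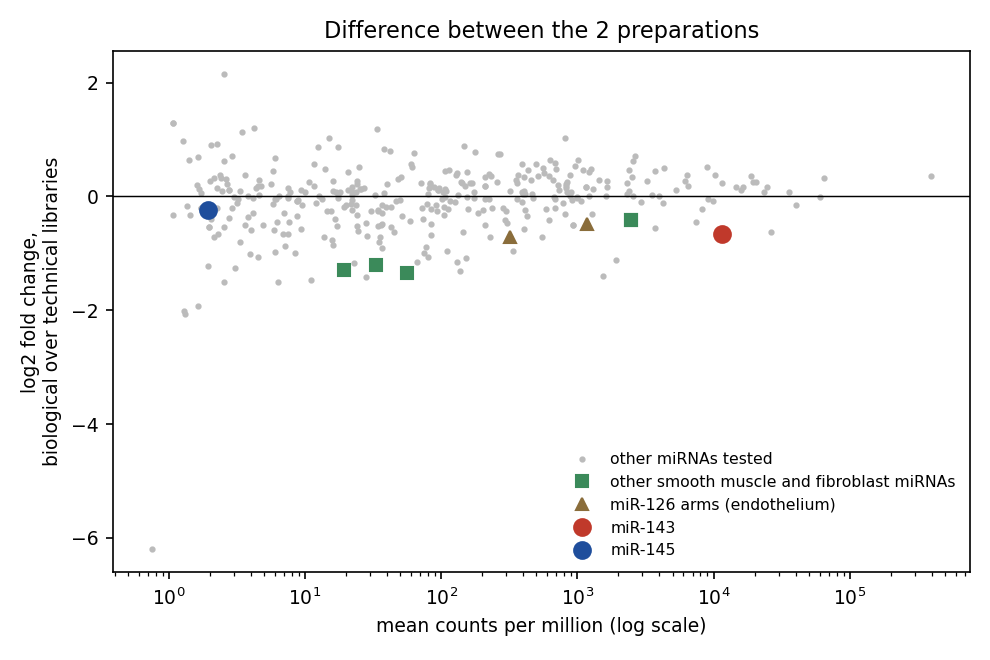
Log2 fold change of the biological over the technical libraries (edgeR, TMM) against mean CPM (log axis) for the 367 miRNAs tested, one point each. miR-143 (-0.66), both miR-126 arms and the other miRNAs of the smooth muscle and fibroblast list lie below 0. miR-145 (-0.24) lies among the widely scattered miRNAs of low counts. miR-199a-3p and miR-199c coincide.

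The fit has 1 residual degree of freedom, from the technical pair, and with TMM edgeR estimated the prior degrees of freedom as infinite, so that its p-values rest on a spread shared over all miRNAs. They serve here as a threshold, and they say nothing of other animals. With library totals in place of TMM, 24 miRNAs were higher and 86 lower, against 65 and 74, and the median log2 fold change of all miRNAs moved from 0.01 to -0.17.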

How the data were processed

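Small RNA libraries were prepared from 500 ng of total RNA of purified vesicles with a NEBNext kit, per the labels' protocols. The authors deposited raw read counts in 919 rows (mature miRNA and hairpin) for 3 libraries, with CPM by the authors (count over column total) and a table of log2 CPM values by the authors. The submitters' processing notes name UMD3.1 and edgeR. No aligner or counting tool is given in the sources used here. Of several hairpin rows of a mature miRNA the one with most counts was kept (793 miRNAs), which gave totals of 5546771 (T1), 6251664 (T2) and 6708654 (B) counts. CPM use these totals. Intervals are exact (Clopper-Pearson) at 95%, from scipy 1.17.1, and cover counting error only. Ratios were given exact intervals from the binomial split of 2 counts.

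B was set against T1 and T2 in edgeR 4.0.16 under R 4.3.3 (quasi-likelihood test after TMM, Benjamini-Hochberg at 0.05) for the 367 miRNAs that reached 10 counts in any library, tested first on simulated data. SEs were derived from the fold change and the F statistic. DESeq2 1.42.0 was an alternative. Labels do not name separate animals. The p-values set the difference of B from T1 and T2 against the spread within the technical pair, shared over miRNAs. They hold no spread between preparations. Hairpins were matched by name to RefSeq (798 of 808). That table gives no strand, so neighbours may lie on either strand. The members and lists were chosen with earlier results of these data known. Named miRNAs were the pair, the 3 nearest in pattern, those next in level, up to 4 of the most abundant of each list, and the neighbour pairs with the 5 largest and 3 smallest gaps. Other list members, the comparison of neighbours by level and the pairs named there, the count bands and the arms were chosen after values were seen.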

Additional observations from a re-analysis of the deposited data

How the results depend on the processing

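With the total taken without miR-375, miR-143 held 1.87% of counts and miR-145 0.00032%, and with rows of a miRNA summed or totals as deposited miR-145 held 0.00015%. These values rest on the total alone. With a library left out, miR-143 ranged from 1.10 to 1.47% and miR-145 from 0.00018 to 0.00022%. The log2 difference of miR-143 was -0.84 with library totals, -0.80 with TMM over miRNAs of at least 100 CPM and -0.80 in the authors' log2 table, and -0.73 to -0.58 without a technical library. That of miR-145 ranged from -0.46 to -0.02 without a technical library, and that of the ratio from -0.70 to -0.12. All these differences kept their sign. DESeq2 called 86 of the 288 miRNAs it adjusted, and edgeR at 100 CPM or more called 70 of 167, 26 of them higher. The main fit called 139 of 367. At 100 CPM, the only other miRNAs of the smooth muscle and fibroblast list left to test were miR-199a-3p and miR-199c. Both were lower, but with identical counts they are 1 measurement. At 10 CPM, 20 of 68 neighbour pairs had a larger gap, and 4 to 27 of 39 without a technical library. The place of the pair by level was the 3rd with neighbours within 50 kb, at 10 CPM and with rows summed, settings chosen after seeing the data. No paired analysis was possible, because there was 1 biological library and the labels link no technical replicate to it. No leave-one-out test was possible, since 2 libraries leave no residual degree of freedom. The depth limits miR-145, with 11 to 14 counts per library.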
